A study of Mus musculus with 10 samples.

Results

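The cell cycle genes examined here are 42 genes picked by name for their known roles, out of 24538 genes in the count tables. They comprise 12 replication genes, 14 mitosis genes, 8 G1 cyclins and cyclin-dependent kinases (CDKs), 4 CDK inhibitors and 4 transcription factors. All 42 had a line in the count tables, and 41 were among the 11571 genes tested, which had an average FPKM of 1 or more in MAMs or in RAMs. FPKM scales a gene's reads by transcript length and library size. Cdkn2a was not tested, and Cdc6, Ccnb1 and Ccne2 reached this limit in RAMs only.

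RNA-seq was performed on macrophages sorted from the lungs of wild type C57BL6/J female mice that were 8 to 10 weeks old. Metastasis-associated macrophages (MAMs) came from small dissected lung metastases, which grew from the mouse mammary cancer line E0771-LG after intravenous injection at 6 to 8 weeks of age, and resident alveolar macrophages (RAMs) came from normal lungs. Both were large cells (FSC hi) with the surface markers CD45+, F4/80+, LY6C- and MRC1+. MAMs were CD11B+CD11C- and RAMs were CD11B-CD11C+. There were 5 libraries of each, and every MAM library pooled metastases of 2 to 4 mice. The model rests on 1 tumor line, and the groups differ in host tissue, sorted subset and pooling together, so that these cannot be told apart. Alpha-amanitin and actinomycin D, which block transcription, were present during tissue digestion for both groups.

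Between 50746305 and 87523247 reads per library were counted on genes. Levels are given as CPM, which scales a gene's counts to the TMM-normalized total of the tested genes. Itgam (CD11B) and Itgax (CD11C) followed the sort, with log2 fold changes of 6.61 and -2.54 in MAMs against RAMs. So did Siglecf, a defining gene of alveolar macrophages, at 3.85 ± 0.68 CPM in MAMs and 333 ± 35.6 in RAMs (SD, n = 5 each). All 8 alveolar macrophage genes had a negative log2 fold change. For Marco the groups overlapped, at 89.7 to 389 CPM in MAMs and 284 to 531 CPM in RAMs. Both groups were sorted as LY6C-, but Ly6c2 was at 10.5 ± 4.96 CPM in MAMs and 0.143 ± 0.098 CPM in RAMs. Ly6c1 was at 1.67 ± 2.03 and 0.117 ± 0.108 CPM, with overlapping groups. Both groups held Lyz2, which had the highest CPM of 5 general macrophage genes. Among the 8 markers of epithelial and tumor cells, Krt5 was at 0 in every library. Their summed level was 9.84 to 24.1 CPM in MAMs and 589 to 702 CPM in RAMs. In RAMs this was mostly Krt19, Cdh1 and Epcam, at means of 436, 131 and 76.8 CPM, against 6.09, 5.16 and 0.652 CPM in MAMs. Krt8, Krt18 and Krt14 had higher means in MAMs, at 1.48, 1.81 and 0.107 CPM against 0.0453, 0.119 and 0 CPM. The Krt18 mean rests largely on MAM 1, at 8.84 CPM. The 8 endothelial and stromal markers, led by Kdr, had summed levels of 41.1 to 95.3 CPM in MAMs and of 2.11 to 12.6 CPM in RAMs. The 5 markers of lung epithelium summed to 3.68 to 16.3 CPM in MAMs and 26.9 to 49.4 CPM in RAMs, and the 4 monocyte genes, led by Ccr2, to 400 to 587 CPM and 13.2 to 20.7 CPM. Neutrophil markers, led by Csf3r, summed to 104 to 247 CPM in MAMs and 92.8 to 119 CPM in RAMs. Markers of T and NK cells, led by Cd4, summed to 9.46 to 17.2 CPM and 1.31 to 6.27 CPM. Those of B cells summed to 3.23 to 21.4 CPM and 2.65 to 16.6 CPM. Dendritic cell markers had 3.31 to 8.3 CPM and 17 to 25.4 CPM, and erythroid markers 2.17 to 5.19 CPM and 1.27 to 5.28 CPM. The part of other cell types in the values that follow was not tested.

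A cell leaves G1 when D-type cyclins with CDK4 or CDK6, and then E-type cyclins with CDK2, phosphorylate the retinoblastoma protein and free the E2F factors that switch on replication genes. Mitosis genes peak later, in G2 and M phase, and many carry a CCAAT box and a cell cycle homology region that is bound by the MuvB complex with its partners B-MYB and FOXM1. CDK inhibitors hold these kinases back. Alveolar macrophages are long-lived residents that renew themselves within the lung, whereas macrophages of metastases come largely from recruited monocytes.

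The promoters of members of both classes are shown first, because the replication and mitosis genes are described apart in what follows. The RefSeq table (GRCm38.p6) had 41 promoters for 35 of the 42 genes, each with 250 bases before and 50 bases after the start. The other 7 were Mcm4, Ccna2, Aurkb, Ccnd1, Ccnd2, Ccne2 and Myc. Only the 250 bases before the start are printed, 5′ to 3′ on the strand of the gene, and the 4 genes were picked after the sequences had been seen. Positions count back from -1, the base just before the start, and name the leftmost base of a match. Capitals mark E2F motifs in Mcm5 (chr8:75109259-75109508, plus strand) and Mcm6 (chr1:128359706-128359955, minus strand), 2 genes of the replicative helicase.
Mcm5: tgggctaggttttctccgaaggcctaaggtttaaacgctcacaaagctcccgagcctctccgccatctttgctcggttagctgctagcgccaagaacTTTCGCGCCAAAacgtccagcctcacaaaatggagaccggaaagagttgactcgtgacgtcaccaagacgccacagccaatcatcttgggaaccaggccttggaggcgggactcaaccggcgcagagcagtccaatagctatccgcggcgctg
Mcm6: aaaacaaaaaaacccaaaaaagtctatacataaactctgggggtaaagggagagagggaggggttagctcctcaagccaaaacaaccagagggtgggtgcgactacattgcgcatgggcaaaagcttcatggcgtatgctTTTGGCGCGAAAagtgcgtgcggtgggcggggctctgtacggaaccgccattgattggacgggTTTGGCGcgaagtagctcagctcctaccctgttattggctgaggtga
In Mcm5 the motifs at -153 and, on the opposite strand, at -148 shared 2 bases. In Mcm6 there was the same arrangement at -110 and -105, and a further motif at -47.
Capitals mark CCAAT boxes and cell cycle homology regions in Cdk1 (chr10:69352913-69353162, minus strand), the kinase of mitotic entry, and Kif11 (chr19:37376132-37376381, plus strand), a spindle motor.
Cdk1: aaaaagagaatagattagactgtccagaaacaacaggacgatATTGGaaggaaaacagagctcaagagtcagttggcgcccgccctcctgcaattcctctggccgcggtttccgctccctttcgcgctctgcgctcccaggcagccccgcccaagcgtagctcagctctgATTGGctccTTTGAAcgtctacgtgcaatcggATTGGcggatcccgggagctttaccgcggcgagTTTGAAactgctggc
Kif11: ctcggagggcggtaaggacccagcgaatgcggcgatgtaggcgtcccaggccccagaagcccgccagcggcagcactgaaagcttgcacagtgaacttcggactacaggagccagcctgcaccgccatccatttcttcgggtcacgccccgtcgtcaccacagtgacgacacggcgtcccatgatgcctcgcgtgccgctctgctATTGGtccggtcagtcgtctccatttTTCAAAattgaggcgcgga
In Cdk1 the CCAAT boxes lay on the opposite strand at -208, -80 and -48, with homology regions at -71 and -15 on the same strand. Cdk1 also held 1 E2F motif, at -131, which is left in lower case. In Kif11 both motifs were on the opposite strand, at -45 and -19.

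All promoters in the table were searched on both strands over the whole 300 bases for these letters. The CCAAT box was CCAAT, the cell cycle homology region was TTTGAA or TTCGAA, and the E2F motif was TTTGGCG or else TTTCGCG or else TTTCCCG. The second form of the homology region reads the same on both strands, and E2F motifs on opposite strands can overlap as in Mcm5. Of 32851 promoters, 37.4% held a CCAAT box, 19.2% a homology region, 7.52% both, and 5.58% an E2F motif. Among the 12 mitosis promoters, 11 held a CCAAT box and 10 held both that box and a homology region (83.3%), while 2 held an E2F motif. Among the 12 replication promoters, which came from 11 genes, 10 held a CCAAT box, 3 held a homology region (25%) and 5 held an E2F motif (41.7%). None of the 6 promoters of G1 cyclins and CDKs and none of the 7 of CDK inhibitors held a homology region. These are matches of letters, and binding was not measured.

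As a whole the cell cycle genes were lower in MAMs than in RAMs, and those that were higher were G1 genes and a CDK inhibitor. Of the 41 tested, 33 were lower in MAMs with an adjusted p under 0.05 (quasi-likelihood test of edgeR, Benjamini-Hochberg adjustment across every gene tested), a call that 27.3% of all genes tested received. The 4 that were higher were Ccnd1, Ccnd2, Cdk4 and Cdkn1a, against 28.9% of all genes, and the 4 without a call were Ccnd3, Ccne1, Cdkn1b and Mybl2. With a fold change over 2 as well, 24 were lower and 2 higher, against 15.1% and 15.3% of all genes. Every RAM library was above every MAM library for 29 members, which held for 21.2% of all genes, and every MAM library was above every RAM library for Ccnd1 and Cdkn1a, which held for 23.7% of all genes. The median log2 fold change was -1.21 over the members and -0.02 over all genes tested. For each of these genes without overlap, the exact permutation test over the 10 libraries gave p = 0.00794 (two-sided), the smallest that 5 against 5 libraries allow. The lack of overlap fixes this value in advance, so it adds no support. Cdc6, Ccnb1 and Ccne2, which reached the FPKM limit in RAMs only, could enter the test only as genes higher in RAMs. They are among the 33 and the 29, and in the counts and medians by class below. Each was also called lower with no filter on FPKM. No strand setting of the counting is given, so reads of overlapping genes may be lost or misassigned. This touches Cdc45 (with Ufd1), Cdc20 (Elovl1), Ccne2 (Ints8), Cdk2 (Pmel) and Ccnd3 (Bysl), beside the members named further on. Through uncharacterized or noncoding entries of the annotation it may also touch Top2a, Plk1, Ccnd2, Cdk6 and Cdkn1a. Overlaps were taken from GENCODE M21 and counting used UCSC RefGene models, so some of these entries may not have entered the counting. Ccnd3 also has a pseudogene copy. In bulk RNA, fewer cycling cells and less of these RNAs per cell cannot be told apart.

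**Figure D1:**
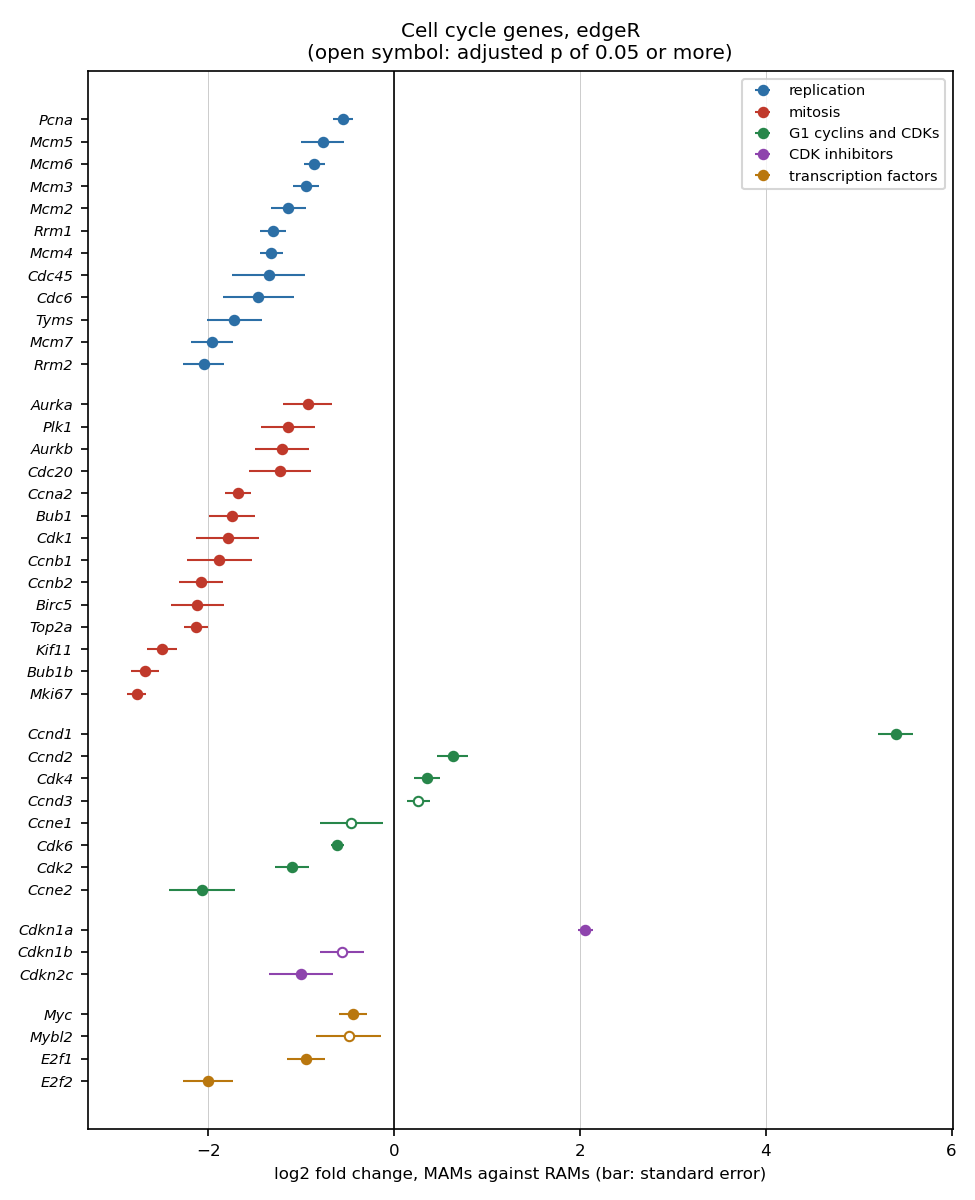
Log2 fold change of each tested member in MAMs against RAMs (horizontal axis, edgeR) with its standard error as a bar, grouped and colored by role, where open symbols have an adjusted p of 0.05 or more. All 12 replication and 14 mitosis genes lie left of 0, from -2.77 for Mki67 to -0.55 for Pcna, while Ccnd1 at 5.40 and Cdkn1a at 2.06 lie far to the right.

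All 14 mitosis genes were lower in MAMs, 13 of them by over 2-fold, with a median log2 fold change of -1.83. Mki67, which encodes the proliferation antigen Ki-67 and lies at chr7:135689784-135716361, had 129, 89.2, 109, 104 and 114 CPM in MAM libraries 1 to 5. The RAM libraries had 757, 802, 784, 629 and 739 CPM. The groups were far apart, and the lowest RAM library, RAM 4, was still well above every MAM library. The mean was 6.8-fold higher in RAMs, a log2 fold change of -2.77 (SE 0.103, adjusted p = 6.4e-12, edgeR). Bub1b, a spindle checkpoint kinase, had 18.3, 11.9, 22.3, 19.1 and 18.2 CPM in MAM libraries 1 to 5 and 115, 120, 105, 108 and 127 CPM in RAM libraries 1 to 5, a log2 fold change of -2.68 (SE 0.147, adjusted p = 5.2e-10, edgeR). Kif11 had 10.9 to 17.2 CPM in MAMs and 63.2 to 92 CPM in RAMs, at -2.50. Top2a, the topoisomerase that untangles chromosomes before they separate, had 44.6, 33.8, 50.5, 49.5 and 47.6 CPM in MAM libraries 1 to 5 and 201, 218, 194, 149 and 224 CPM in RAM libraries 1 to 5. Again there was no overlap, and RAM 4 was the lowest RAM library (log2 fold change -2.13, SE 0.131, adjusted p = 2.1e-09, edgeR).

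The cyclins of G2 and mitosis were lower in MAMs, and so was their kinase. Ccnb2 (cyclin B2) had a log2 fold change of -2.08, Ccnb1 (cyclin B1) of -1.88, Cdk1 of -1.79 and Ccna2 (cyclin A2) of -1.68, and the groups overlapped for none of them. Ccna2 varied little within groups, at 18.2, 14.1, 17.5, 15.6 and 16.3 CPM in MAM libraries 1 to 5 against 56.1, 58.1, 49.3, 41 and 57.2 CPM in RAM libraries 1 to 5. Cdk1 spread more widely in MAMs, from 2.01 to 8.65 CPM, against 13.7 to 24 CPM in RAMs. Ccnb1 and Ccnb2 each have a pseudogene copy and Ccna2 shares exon sequence with Exosc9, so their values are uncertain as far as such reads were misassigned.

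The other mitosis genes act in the spindle checkpoint, the chromosomal passenger complex and spindle assembly. Birc5 (survivin) and Bub1 (a checkpoint kinase) had log2 fold changes of -2.12 and -1.74 with no overlap. Plk1 and Aurka, kinases of centrosome maturation and spindle assembly, changed less, by -1.14 and -0.93, and Aurka was the only mitosis gene under 2-fold. The groups overlapped for Aurkb, the passenger complex kinase (-1.21, adjusted p = 0.00234, edgeR), and for Cdc20, the activator of the anaphase promoting complex (-1.23, adjusted p = 0.00574, edgeR). Aurkb had 22.1 CPM in MAM 1 against 6.66 to 10.8 CPM in the other MAM libraries and 19.6 to 31.7 CPM in RAMs. MAM 1 alone set that overlap, and Aurkb was at -1.59 without it. Cdc20 had 8.43 CPM in MAM 4 and 6.54 CPM in RAM 5.

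**Figure D2:**
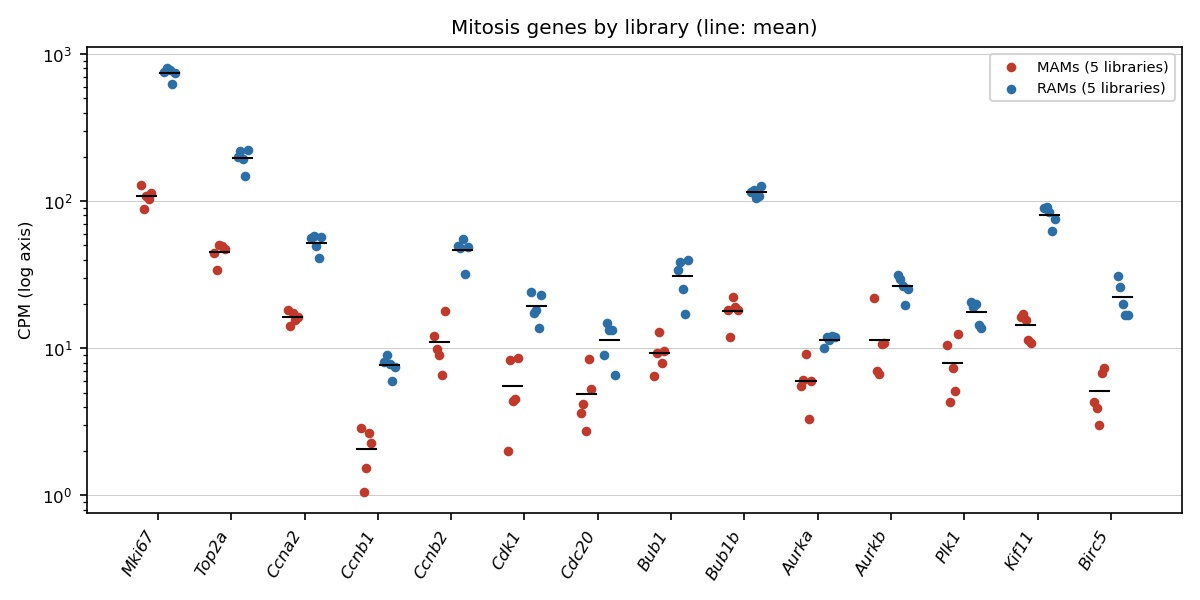
CPM of the 14 mitosis genes in each library on a log axis, with MAMs in red, RAMs in blue and the group mean as a line. The groups overlap for Cdc20 and Aurkb alone, and they lie farthest apart for Mki67, at a mean of 109 CPM in MAMs and 742 CPM in RAMs.

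All 12 replication genes were lower in MAMs as well, 8 of them by over 2-fold, with a median log2 fold change of -1.31. Rrm2, the cell cycle-regulated subunit of ribonucleotide reductase, had 16, 6.65, 16.8, 12.7 and 17.6 CPM in MAM libraries 1 to 5. The RAM libraries had 57.8, 63.7, 55, 45.1 and 66.3 CPM. The lowest RAM library was thus more than 2-fold above the highest MAM library (log2 fold change -2.05, SE 0.223, adjusted p = 1.4e-06, edgeR). Its partner Rrm1 had a log2 fold change of -1.30, and Tyms, the thymidylate synthase that makes dTMP, one of -1.72. MAM 1 was the highest MAM library for both Rrm1, at 50.1 CPM, and Tyms, at 12.6 CPM, and stayed below the lowest RAM values of 81.9 and 16.6 CPM.

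The 6 subunits of the MCM helicase, which form 1 complex in equal parts, had unequal log2 fold changes. Mcm7 was at 10.6 ± 4.35 CPM in MAMs and 41 ± 3.74 CPM in RAMs (SD, n = 5), a log2 fold change of -1.96. Mcm4 and Mcm2 had -1.32 and -1.14, and Mcm3, Mcm6 and Mcm5 had -0.95, -0.86 and -0.77. Within MAMs, Mcm7 had 18.2 CPM in MAM 3 and 7.42 to 9.19 CPM in the other libraries. Mcm7 shares exon sequence with Cops6, Ap4m1, Mir25 and Mir93, and the differences between subunits were not tested. Mcm5 was the only replication gene whose groups overlapped, with 10.3 to 16.3 CPM in MAMs and 15 to 31.4 CPM in RAMs (adjusted p = 0.0108, edgeR). Of the factors that load and start the helicase, Cdc6 had a log2 fold change of -1.46 and Cdc45 of -1.35. Both were uneven in MAMs, from 1.42 to 10.9 CPM for Cdc6 and from 1.1 to 8.82 CPM for Cdc45, and lay between 11.4 and 20.4 CPM in RAMs. Pcna, the sliding clamp of the polymerases, which also serves in DNA repair, changed least, from 87.6 ± 11.8 CPM in RAMs to 59.7 ± 4.76 CPM in MAMs (SD, n = 5), a log2 fold change of -0.55. Pcna has pseudogene copies, and so has Tyms.

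**Figure D3:**
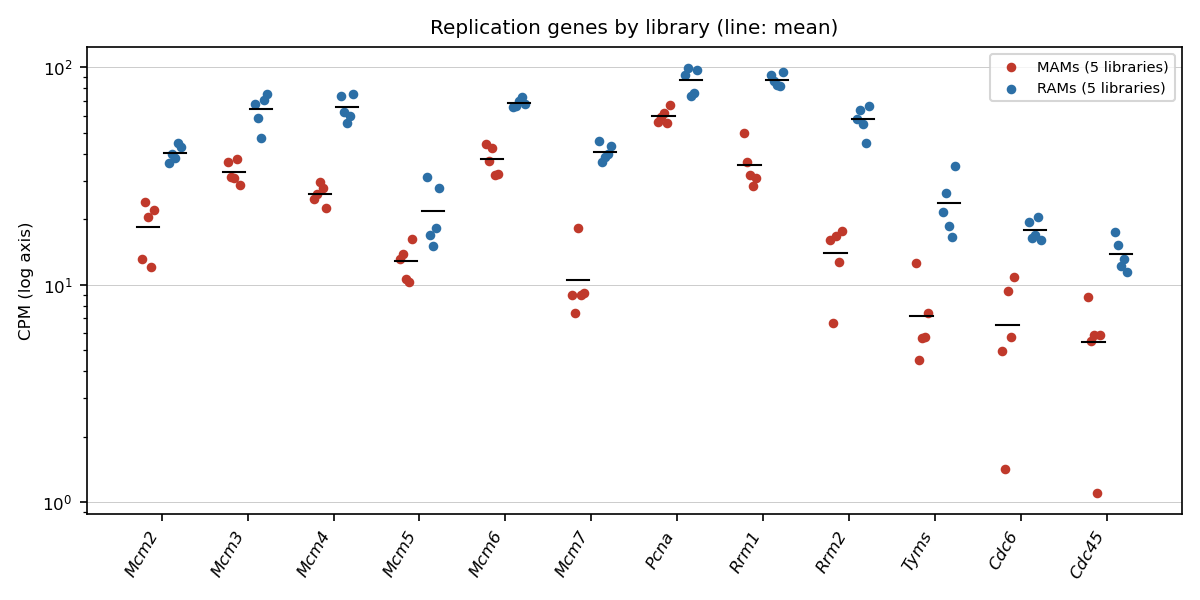
CPM of the 12 replication genes in each library on a log axis, with MAMs in red, RAMs in blue and the group mean as a line. The groups overlap for Mcm5 alone, and the means lie closest together for Pcna, at 59.7 CPM in MAMs and 87.6 CPM in RAMs.

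Averaged over the 14 mitosis genes, the log2 CPM was 3.38 ± 0.169 in MAMs and 5.27 ± 0.182 in RAMs (SD, n = 5). Over the 12 replication genes it was 4.02 ± 0.25 in MAMs and 5.36 ± 0.136 in RAMs. In MAMs the mitosis mean was below the replication mean in every library, by log2 differences of -0.77, -0.59, -0.88, -0.39 and -0.55 in libraries 1 to 5. In RAMs the same difference was -0.09, 0.09, 0.11, -0.31 and -0.26. CPM is not scaled by length, so only the contrast between MAMs and RAMs in this difference can be read. The groups did not overlap in it, which follows from the same fold changes and is given without a test. Per transcript length, mean levels of mitosis genes ran from 0.715 FPKM for Ccnb1 to 9.41 FPKM for Mki67 in MAMs and from 2.65 to 65.9 FPKM for the same genes in RAMs. Replication genes ran from 0.871 FPKM for Cdc6 to 33.2 FPKM for Pcna in MAMs and from 3.07 to 44.9 FPKM for the same genes in RAMs. In each class the lowest and the highest gene were the same in both groups. The coefficient of variation between libraries was larger in MAMs for 11 of 14 mitosis genes (median 35.9% against 16.2% in RAMs) and for 8 of 12 replication genes (26.6% against 13.6%). It was larger in RAMs for Top2a, Ccna2, Bub1, Mcm3, Mcm4, Mcm5 and Pcna. The same comparison was not made over all genes tested, so the wider spread in MAMs cannot be called particular to these genes.

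No library was low throughout its group. RAM 4 had the lowest RAM value for 9 of the 14 mitosis genes, including Mki67, Top2a, Ccna2, Ccnb1, Ccnb2 and Cdk1, but for 3 of the 12 replication genes it had the lowest and for 3 the highest value. In MAMs, library 2 was lowest for 6 mitosis genes and library 4 for 6 replication genes. With any 1 library left out, the calls of all 14 mitosis and all 12 replication genes were the same.

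**Figure D4:**
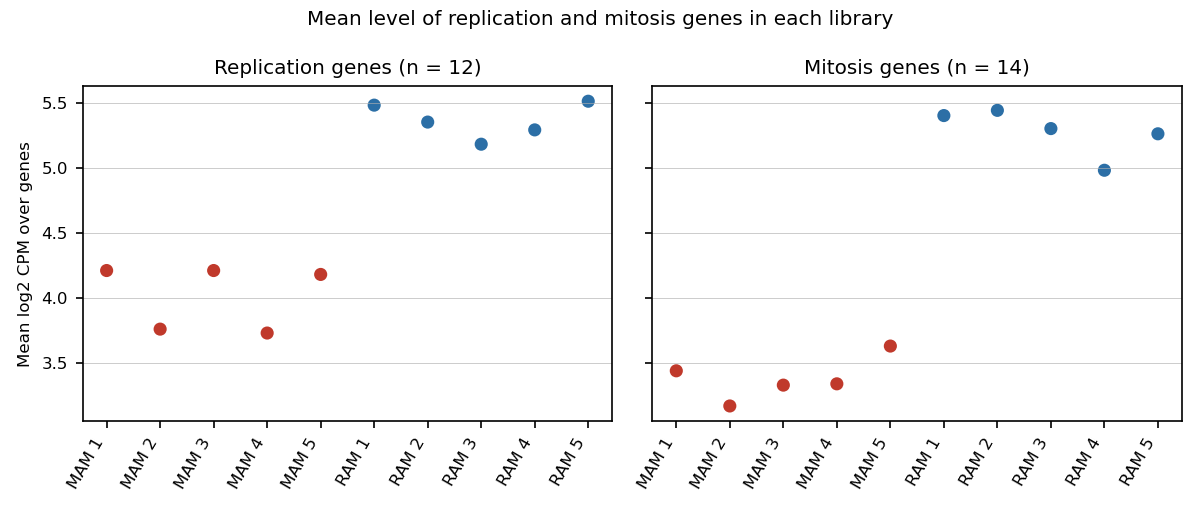
Mean log2 CPM over the 12 replication genes (left) and the 14 mitosis genes (right) in each library, MAMs in red and RAMs in blue. RAM libraries lie between 5.18 and 5.51 for replication and between 4.98 and 5.44 for mitosis, and MAM libraries between 3.73 and 4.21 and between 3.17 and 3.63.

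The other genes of DNA replication and mitosis were counted in the same way. Their lists were compiled from general knowledge but with earlier results of these data known, so they are not independent support. Of 47 other replication genes tested, 31 were lower in MAMs, 2 higher and 14 without a call, with a median log2 fold change of -0.78. The lowest log2 fold changes were those of Clspn, the checkpoint adaptor claspin, at -2.70, Pole, the catalytic subunit of the leading strand polymerase, at -2.39, and Ticrr, an initiation factor, at -1.97. Of 64 other mitosis genes tested, 56 were lower, 2 higher and 6 without a call, with a median of -1.77. Over all genes tested, 27.3% were lower and 28.9% higher, with a median of -0.02. Kif23 and Anln, which act in cytokinesis, were at -2.99 and -2.98, and Aspm, a spindle pole protein, was at -2.78. Kif23 had 13.8 ± 4.68 CPM in MAMs and 110 ± 13.4 CPM in RAMs (SD, n = 5). Named after their values were seen, the 2 mitosis genes that were higher in MAMs were Pttg1, which encodes securin, at 0.99 and Ncapg2, a condensin II subunit, at 0.70. The 2 replication genes were Rfc3, a clamp loader subunit, at 0.73 and Orc4, a subunit of the origin recognition complex, at 0.50. In the promoter table, 72.6% of 62 promoters of these mitosis genes and 16.3% of 49 promoters of these replication genes held a homology region, and 17.7% and 42.9% held an E2F motif.

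Of the D-type cyclins, Ccnd1 and Ccnd2 were higher in MAMs and Ccnd3 had no call. Ccnd1, at chr7:144929931-144939925, encodes cyclin D1, which activates CDK4 and CDK6. It had 346, 305, 221, 206 and 245 CPM in MAM libraries 1 to 5. The RAM libraries had 4.91, 5.15, 7.6, 7.51 and 6.1 CPM. There was no overlap, and the mean was 42.3-fold higher in MAMs (log2 fold change 5.40, SE 0.188, adjusted p = 3.0e-12, edgeR). The log2 fold change was 6.21 when 1% of the other group's level was subtracted and 5.01 with limma on log2(FPKM + 1). In the same MAM libraries the Kdr-led endothelial and stromal markers were higher than in RAMs, as given above, and their part in this difference was not tested. Ccnd1 shares exon sequence with LTO1.

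Ccnd2 (cyclin D2) had 790, 750, 482, 370 and 600 CPM in MAM libraries 1 to 5 and 343, 406, 414, 407 and 369 CPM in RAM libraries 1 to 5. MAM 4 lay within the range of RAMs and the other MAM libraries above it (log2 fold change 0.63, adjusted p = 0.00432, edgeR). Ccnd3 (cyclin D3) was at 53.6 ± 4.13 CPM in MAMs and 44.7 ± 7.07 CPM in RAMs (SD, n = 5), at 0.26 and without a call (adjusted p = 0.0821, edgeR). It passed the threshold without RAM 5 (adjusted p = 0.0274) and with limma on log2 FPKM (adjusted p = 0.0238 with 1 added and 0.0239 with 0.1 added). Per transcript length, the D-type cyclins summed to 252 ± 55 FPKM in MAMs and 103 ± 5.37 FPKM in RAMs (SD, n = 5). Ccnd1 made up 42.5% ± 1.5 of that sum in MAMs and 2.26% ± 0.501 in RAMs, and Ccnd2 39.4% ± 3.93 and 62.4% ± 3.15. In MAMs cyclin D1 and D2 RNA thus stood at like levels, 107 ± 22.6 and 101 ± 29.6 FPKM, whereas in RAMs Ccnd1 was at 2.32 ± 0.512 FPKM.

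**Figure D5:**
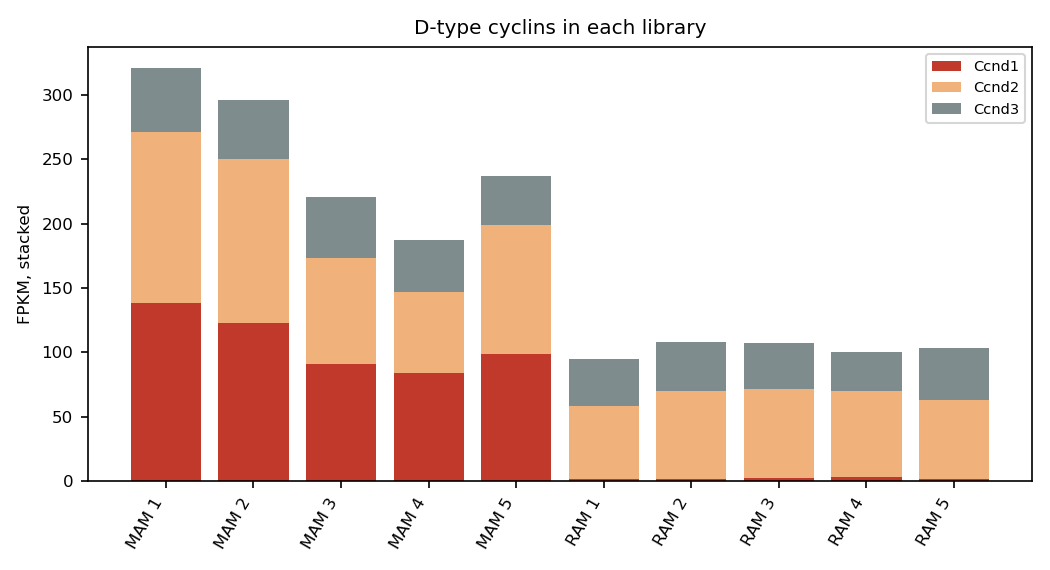
FPKM of Ccnd1, Ccnd2 and Ccnd3 stacked in each library. The Ccnd1 part takes 41.4% to 45% of each MAM bar and 1.9% to 3.05% of each RAM bar, and the MAM bars reach 188 to 321 FPKM against 95 to 108 in RAMs.

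The kinases that D-type cyclins bind split. Cdk6 was lower in MAMs, with 482 to 573 CPM against 737 to 872 CPM in RAMs and no overlap (log2 fold change -0.61, SE 0.0698, adjusted p = 2.3e-06, edgeR). Cdk4 was at 0.35 (adjusted p = 0.0436, edgeR), with overlapping groups of 44.5 to 63.3 CPM in MAMs and 34 to 53.5 CPM in RAMs, and it shares exon sequence with Tspan31. This call was lost with upper-quartile scaling (0.19, adjusted p = 0.256, edgeR) and with the replicate number as a block (adjusted p = 0.0629). It was also lost without 1 library, with adjusted p = 0.118 without MAM 1, 0.0646 without MAM 2, 0.0661 without MAM 3, 0.109 without RAM 1, 0.0844 without RAM 2, 0.112 without RAM 3 and 0.0739 without RAM 4 (edgeR). The next step of the cycle followed the replication genes in part. Ccne2 (cyclin E2) had 0.891 to 2.83 CPM in MAMs and 7 to 9.85 CPM in RAMs, a log2 fold change of -2.07, and its kinase Cdk2 was at -1.10, both without overlap. Ccne1 (cyclin E1), at 3.58 ± 0.992 CPM in MAMs and 4.94 ± 1.19 CPM in RAMs (SD, n = 5), had no call (log2 fold change -0.46, adjusted p = 0.267, edgeR). Over the 8 G1 cyclins and CDKs, 3 were lower, 3 higher and 2 without a call, with a median of -0.10. Over all genes tested the shares were 27.3% lower and 28.9% higher, so these counts show no direction for the group.

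Among CDK inhibitors, Cdkn1a stood out. It lies at chr17:29090976-29100727 and encodes p21, which inhibits CDK2 and is a target of p53. It had 1920, 1710, 1860, 2330 and 2000 CPM in MAM libraries 1 to 5 and 455, 510, 463, 485 and 435 CPM in RAM libraries 1 to 5. There was no overlap, and the mean was 4.18-fold higher in MAMs (log2 fold change 2.06, SE 0.0841, adjusted p = 1.8e-11, edgeR). Per transcript length it was the most abundant of the 42 genes in both groups, at 1120 ± 134 FPKM in MAMs and 271 ± 18.2 FPKM in RAMs (SD, n = 5). Cdkn2c (p18), an inhibitor of CDK4 and CDK6, went the other way, from 8.96 ± 2.26 CPM in RAMs to 4.48 ± 1.88 CPM in MAMs (log2 fold change -1.0, adjusted p = 0.0217, edgeR). Its call was lost without RAM 2 (adjusted p = 0.0503) and without RAM 3 (adjusted p = 0.0576). Cdkn1b (p27) was at -0.56 without a call (adjusted p = 0.061, edgeR). MAM 1 and MAM 2, at 12.1 and 9.33 CPM, were far below the RAM libraries at 22 to 29 CPM, while the other MAM libraries had 21.4 to 24.5 CPM. Cdkn1b passed the threshold without MAM 3 (adjusted p = 0.0432) and without MAM 5 (adjusted p = 0.0298), and with 5 other settings. Cdkn2a, which encodes p16 and p19, had 76 counts in MAM 1, 10 in RAM 1, 28 in RAM 5 and 0 in the other libraries, where up to 3 counts, or at most 0.0671 CPM, are allowed by counting error.

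Of the transcription factors, E2f2 had the lowest log2 fold change. It had 10 to 34.7 CPM in MAMs and 76.8 to 95 CPM in RAMs, a log2 fold change of -2.0 (SE 0.269, adjusted p = 1.3e-05, edgeR). E2f1 was at -0.95, also without overlap. Myc had 65 to 100 CPM in MAMs and 81.1 to 141 CPM in RAMs, a log2 fold change of -0.44 (adjusted p = 0.0209, edgeR). The groups overlapped, and the call was lost without MAM 4 (adjusted p = 0.0516), without RAM 1 (adjusted p = 0.0647) and without RAM 3 (adjusted p = 0.0523). Mybl2, which encodes B-MYB, had no call (-0.49, adjusted p = 0.254, edgeR), with 3.06 to 5.86 CPM in MAMs and 3.21 to 9.46 CPM in RAMs. Of 25 further genes of the RB, E2F and MuvB network tested, 10 were lower, 7 higher and 8 without a call, with a median of -0.25. Over all genes tested 27.3% were lower and 28.9% higher, so the share of the network that was higher is near that of all genes. E2f7, an E2F repressor, was at -2.44, Mybl1 at -2.20 and Mxd3, a partner of MAX, at -2.31 with overlapping groups. Named after their values were seen, Foxm1 was at -2.13, E2f3 at 1.43, Rb1 itself at 0.37 and Max at 1.24. The listed partners of MAX had no common direction. Mxd1 was at 1.84 and Mxd4, like Mxd3, was lower, at -1.34. Mxi1 (0.00), Mnt (0.28) and Mga (-0.16) had no call.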

How the data were processed

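The deposited count tables, 1 per library, hold whole-number counts that the authors made by aligning reads to GRCm38 (mm10) with TopHat2 2.0.13 and counting uniquely mapped reads per gene with HTSeq 0.6.1 on UCSC RefGene models, with no strand setting stated. The authors' FPKM values come from Cufflinks 2.2.1. Versions are from the submitters' processing notes, which also name DESeq2 1.6.3. The 5 lines of unassigned reads per file, 54.6% to 58.3% of MAM and 62.2% to 64.1% of RAM totals, were left out, and 0 columns lacked a sample. Groups and replicate numbers came from the labels, which name no batch. Each sample is, by the study's methods, an individual mouse or a pool of metastases.

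MAMs and RAMs were compared over 11571 genes, all those with any count whose average FPKM reached 1 in MAMs or RAMs, with edgeR's quasi-likelihood test (edgeR 4.0.16, R 4.3.3), TMM scaling, no covariate and Benjamini-Hochberg adjustment. Standard errors given with edgeR are not an output of that test. They were derived as the absolute log2 fold change divided by the square root of its F statistic. Log2 CPM used a prior count of 2. On simulated counts for 11571 genes with 200 changed, the test recovered 152 with 6 false calls. In the data 3160 genes were called lower and 3344 higher. The simulation, with few and balanced changes, does not check the scaling under change that broad. Alternatives were DESeq2 1.42.0, other scalings and filters, the replicate number as a block, limma 3.58.1 on log2 FPKM with 1 or 0.1 added, each library left out, and, added after seeing the data, 1% of the other group's level subtracted. All members were named, as were the 3 largest called changes of each other list. The members and lists were chosen with earlier results of these data known. Positions are those of GENCODE M21 on GRCm38, and promoters are from RefSeq. Sequences of the D-type cyclin proteins were not analysed here. Python 3.11.15 and matplotlib 3.10.9 served for the figures. Intervals for a count of 0 cover counting error only.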

Additional observations from a re-analysis of the deposited data

Results flagged for a closer look

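Each group of 5 libraries was searched for 1 library far from the others, by Dixon's ratio of the gap to the group's range with a limit of 0.71. Of 84 groups of 5 values, 4 passed, and chance alone passes about 1 in 20. Mcm7 had 18.2 CPM in MAM 3, against 7.42 to 9.19 CPM in the other MAM libraries, and its log2 fold change was -2.24 without that library. Aurkb had 22.1 CPM in MAM 1, against 6.66 to 10.8 CPM, and its log2 fold change was -1.59 without it. Cdkn2a had 1.55 CPM in MAM 1 against 0 in the other MAM libraries, and 0.597 CPM in RAM 5 against 0 to 0.171 CPM in the other RAM libraries.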

How the results depend on the processing

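Under 19 alternatives the 41 tested members gave 779 results, of which 755 kept their direction and their side of the threshold, 14 lost a call, 10 gained one and 0 reversed. The 12 replication and 14 mitosis genes were called lower in every alternative, and 34 of the 37 members with a call kept it in all. Cdk4, Myc and Cdkn2c lost theirs under some, and Cdkn1b and Ccnd3 gained one. The counts of members called lower ran from 31 to 34 and of those called higher from 3 to 5. Upper-quartile scaling shifted the median of all genes to -0.18 from -0.02 and called 4072 genes lower and 2745 higher, against 3160 and 3344. Same-numbered libraries of the groups did not deviate together over the genes tested (correlations from -0.0366 to 0.0294). These values show no pairing by number, but they cannot exclude a small effect shared by same-numbered samples. With the replicate block 34 members were lower and 3 higher: Cdk4 lost its call (0.36, adjusted p = 0.0629) and Cdkn1b gained one (-0.65, adjusted p = 0.0381), both edgeR. The precision differed between genes: in MAMs the coefficient of variation between libraries was 57.7% for Cdc6 and 7.98% for Pcna. Its cause was not tested.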

Other observations

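Further genes next to the cell cycle program came from lists compiled in the same way, and of all genes tested 28.9% were higher in MAMs and 27.3% lower. Of 16 tested p53 targets beside Cdkn1a, 6 were higher in MAMs, 2 lower and 8 without a call, with a median log2 fold change of 0.28, so that the share higher is not far above that of all genes. Plk2, a kinase of the polo family, had 237 ± 46.3 CPM in MAMs and 17.7 ± 5.63 CPM in RAMs (SD, n = 5), a log2 fold change of 3.75, and Pmaip1, which encodes the apoptosis factor NOXA, was at 2.39. Ddit4, an inhibitor of mTORC1, was at 3.82 from 4.99 ± 4.1 CPM in MAMs and 0.353 ± 0.186 CPM in RAMs. Named after its values were seen, Mdm2, the ligase that degrades p53, had 421 to 505 CPM in MAMs and 105 to 139 CPM in RAMs, at 1.98. The 2 that were lower were Phlda3 at -1.32 and Plk3 at -0.81, also named after their values were seen. The list's median stands beside -0.02 for all genes tested.

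Of 12 other CDK inhibitors and antiproliferative genes, 7 were higher, 4 lower and 1 without a call, with a median of 0.41, against 28.9% higher and 27.3% lower over all genes tested. Tob1, an antiproliferative adaptor, had 296 ± 26.5 CPM in RAMs and 65 ± 12.8 CPM in MAMs (SD, n = 5), a log2 fold change of -2.19. Gadd45b and Btg3 were higher in MAMs, at 1.32 and 1.22. Of 11 histone genes, 8 were lower, 0 higher and 3 without a call, with a median of -1.41. These include the histone variant genes H2afx at -1.41 and H2afz at -0.99. Hist1h3b, Hist1h2bb and Hist1h1b were at -2.30, -2.15 and -2.03. Many histone genes, though not these variants, are near-identical copies between which uniquely mapped reads can be lost. Hist1h3b had only 0.133 ± 0.0913 CPM in MAMs, so the values of such copies are uncertain.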
